A study of Mus musculus with 2 samples.

Results

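The S100 proteins are small calcium-binding proteins of vertebrates, and 8 of the 19294 genes in the count table were followed here: S100a1, S100a6, S100a10, S100a11, S100a13, S100a14, S100a16 and S100g. They were taken by a fixed list of gene symbols, chosen with earlier results of these data known. S100a5, S100b and S100z are also in the table and are given apart from the 8. All 8 reached 10 counts in a library or in both and entered the comparison with 17235 genes in all.

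The data are mRNA-seq counts from mouse intestinal organoids (mIOs), which are budding epithelial cultures grown from jejunal crypts in Matrigel with EGF, Noggin and R-spondin. The comparison is between 1 control culture and 1 culture treated with dextran sulfate sodium (DSS), a sulfated sugar polymer that is toxic to gut epithelium. Both were taken on day 4. Both cultures carried the Lgr5-EGFP-IRES-creERT2 allele, in which EGFP and an inducible Cre are expressed from the Lgr5 locus, and no wild-type culture was sequenced for this comparison. The DSS concentration of the sequenced culture is not given in the sources used here, and an organoid culture holds epithelium without the connective tissue, vessels or immune cells of the gut.

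Most S100 proteins form dimers, and each subunit carries a pair of EF-hands, the helix-loop-helix folds that hold calcium. On binding calcium they expose a surface that grips partner proteins such as annexins, which bind membranes. In the intestine the family is known for S100g (calbindin-D9k), which carries calcium through the enterocyte, and for several members that are abundant in the surface epithelium.

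The control and DSS libraries held 65493032 and 59746968 counts, and neither condition had a replicate. Counts were scaled by TMM factors (1.09 and 0.915), which set the bulk of genes to the same level, and levels are given as CPM, a gene's scaled counts relative to a fixed library size. Differences are log2 ratios of DSS over control, in square brackets with an exact 95% interval that covers counting error only and not the variation between cultures. No test was made, so the words higher and lower describe these 2 libraries. The labels name the cell type as intestinal stem cells. For the marker counts that follow, 19.3% of all genes tested were at or above 1 and 20.2% at or below -1. The 8 stem cell markers summed to 1801 CPM without DSS and 243 CPM with it, and all 8 had log2 ratios at or below -1. All 12 enterocyte markers were at or above 1 and summed to 3335 and 26666 CPM. Goblet cell markers (8 of 8 at or above 1, 866 and 11711 CPM) and enteroendocrine markers (8 of 8, 854 and 4376 CPM) lay on the same side. Of the 8 Paneth cell markers, 6 were at or below -1 (1082 and 336 CPM). Tuft cell markers (6 of 8 in the table, 3 at or below -1, with as few as 12 and 4 counts) summed to 16.04 and 12.3 CPM. The 10 general markers of intestinal epithelium went both ways, with 3 at or above 1 and 1 at or below -1, and summed to 6843 and 11426 CPM. Their median was 0.03, or -0.22 with total counts. Since the table lists no gene at 0 counts, markers without counts would be missing from it. In bulk RNA, a change in the number of cells of a type and a change in RNA per cell cannot be told apart, and this holds for every S100 value below.

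All 8 S100 genes had a higher level in the DSS library than in the control, as had 48.0% of all genes tested. None of the 8 counting intervals held 0, and the share of all genes for which this held was not computed. At high counts the interval is narrow and can exclude 0 at small ratios. The log2 ratios ran from 0.71 for S100a10 to 2.78 for S100a13, with a median of 1.30, against a median of -0.06 over all genes tested. At a log2 ratio of 1 or more (2-fold) stood 7 of the 8, where 19.3% of all genes did, and 0 were at or below -1, where 20.2% were. At 2 or more stood 2 of the 8 (all genes 7.87%), and 0 were at or below -2 (all genes 6.54%). The members were chosen as a family in view of earlier results, so these counts describe them and are no test. Scaling by total counts alone moved the median of all genes to -0.31, a shift of -0.26, and left 5 of the 8 at or above 1 (all genes 15.4%) and 0 at or below -1 (all genes 26.2%), since S100a11 then had 0.85 and S100a16 0.75. Of all genes past 1 in either direction, 48.9% were higher in the DSS library with TMM scaling and 37.1% with total counts. All 8 S100 genes stayed above 0 under every scaling tried. Of all genes, 38.5% were above 0 with total counts and 51.3% with upper quartile factors.

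**Figure D1:**
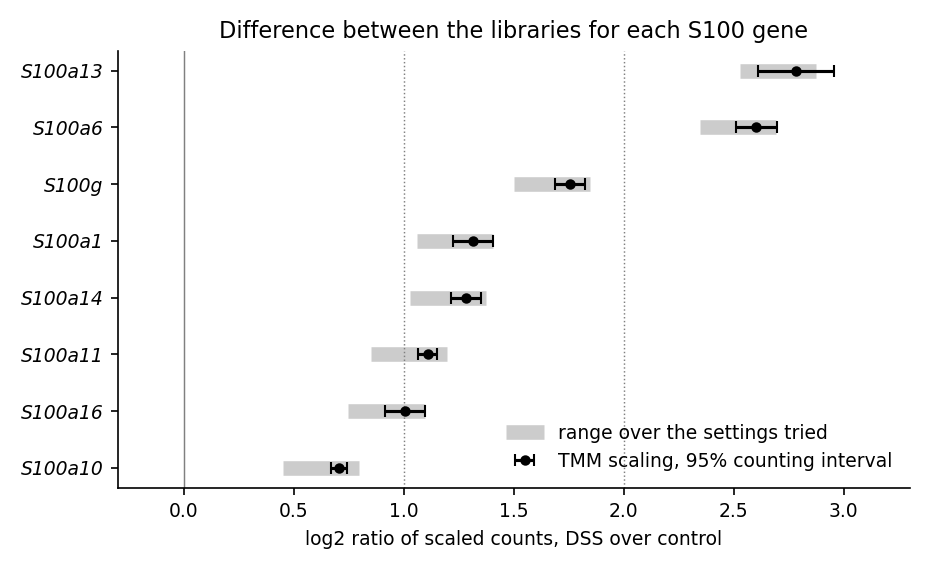
Log2 ratio of scaled counts, DSS over control, for each of the 8 S100 genes (points, with 95% counting intervals), with the range over the settings tried as grey bars and dotted lines at 1 and 2. S100a13 and S100a6 lie beyond 2 in every setting, S100a10 lies under 1 in every setting, and no bar reaches 0.

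Together the 8 genes held 27696 counts (387 CPM) in the control against 48816 (893 CPM) after DSS. The log2 ratio of the sums was 1.21 [1.18, 1.23], a 2.31-fold higher level. Their share of all counts was 0.0423% and 0.0817%. This share amounts to scaling by total counts, with which the log2 ratio of the sums was 0.95. The difference was unequal within the family. S100a10 and S100a11, which made up most of the S100 counts, had a summed log2 ratio of 0.88 [0.85, 0.91], while the other 6 had 1.68 [1.64, 1.71]. The share of the first 2 in all S100 counts was 65.6% without DSS and 52.3% with it.

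**Figure D2:**
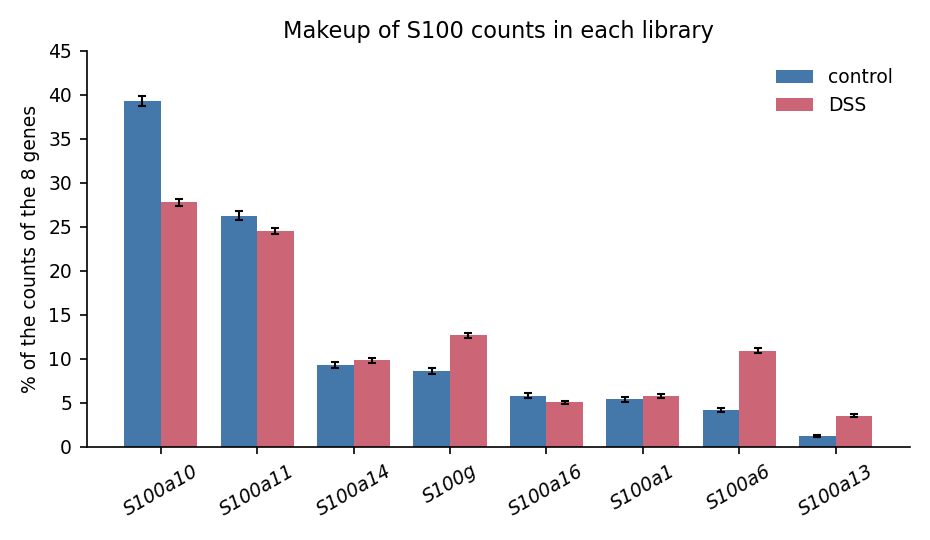
Share of the counts of the 8 S100 genes that belonged to each gene, in the control and the DSS library, in percent, with exact 95% binomial intervals for counting error as error bars. S100a10 took 39.3% without DSS and 27.8% with it, while S100a6 took 4.14% and 10.9%.

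Of the genes on chromosome 3, where all members but the X-linked S100g lie, S100a10 and S100a11 are partners of annexins. S100a10 (p11, gene identifier 20194) has lost calcium binding and is held in its active form, and it forms a heterotetramer with annexin A2 under the plasma membrane. It had 10890 counts in the control against 13569 after DSS, or 152 and 248 CPM. Its log2 ratio of 0.71 [0.67, 0.74] was the lowest of the 8, yet 74.5% of all genes tested had a lower one. S100a11 (calgizzarin, 20195), which binds annexins A1 and A2, had 7274 and 11972 counts, or 102 and 219 CPM. Its log2 ratio was 1.11 [1.07, 1.15], and S100a10 therefore went from 1.497 to 1.13 counts per S100a11 count, a change of -0.40 [-0.46, -0.35] on the log2 scale that does not depend on scaling.

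S100a11 is the member whose counts could be shared with near-identical copies. Stretches at least 95% identical to its transcript occur in Gm12854, with 101 and 141 counts, and in Gm7665, with 137 and 176. How reads that fit several places were counted is not given in the sources used here. With both copies added, the log2 ratio of S100a11 was 1.10 [1.06, 1.14]. No such stretch was found for the other 7 members, and no member overlaps an exon of another gene in the GENCODE annotation.

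The 12 annexin genes were all in the table. Of these, 5 were at or above 1 (all genes 19.3%) and 0 at or below -1 (all genes 20.2%), with a median of 0.62. Anxa2, the partner of S100a10, had 34844 and 59466 counts and a log2 ratio of 1.16 [1.14, 1.18]. S100a10 was therefore lower relative to its partner in the DSS library, with 0.313 counts per Anxa2 count in the control and 0.228 with DSS (log2 change -0.45 [-0.50, -0.41]). Anxa1 had 1083 and 1792 counts and a log2 ratio of 1.12 [1.01, 1.23]. Relative to Anxa1, S100a11 had 6.72 and 6.68 counts, a log2 change of -0.01 [-0.13, 0.11], so this pair kept its ratio within counting error. Relative to Anxa2, S100a11 had 0.209 and 0.201 counts. That log2 change was small, -0.052 [-0.099, -0.006], with an interval that leaves out 0. Counts per count are compared here only between the libraries, since genes differ in length.

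The widest difference among annexins was that of Anxa10, an annexin of the stomach and upper gut epithelium, with 192 counts in the control against 5797 after DSS (5.30 [5.10, 5.52]). Anxa13, an intestinal annexin of the apical transport route, had 12265 and 34987 counts (1.90 [1.87, 1.93]), and Anxa8 had 77 and 155 (1.40 [0.99, 1.81]). Anxa11 binds S100a6 and was near even, with 7302 and 6685 counts and a log2 ratio of 0.26 [0.21, 0.31]. With scaling by total counts, 3 annexins were at or above 1 (all genes 15.4%), 10 were above 0 (all genes 38.5%) and 2 were below 0. Ahnak, a giant scaffold protein that binds the complex of S100a10 and annexin A2, had 8177 and 25211 counts and a log2 ratio of 2.01 [1.98, 2.05], and Plat, whose product tissue plasminogen activator can be bound by that complex at the cell surface, had 668 and 1889 (1.89 [1.76, 2.02]). Per Ahnak count, S100a10 went from 1.33 to 0.538 counts.

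S100a6 (calcyclin, 20200) is a small dimer first described in growing cells that binds annexins, the calcyclin-binding protein Cacybp and its relative Sugt1. It had 1146 control counts against 5318 after DSS, or 16.01 and 97.3 CPM. The log2 ratio was 2.60 [2.51, 2.70], higher than that of 95.3% of the genes tested. S100a6 counts per S100a10 count went from 0.105 to 0.392, a log2 change of 1.90 [1.80, 1.997]. The log2 change was 1.495 [1.39, 1.60] per S100a11 count and 1.44 [1.35, 1.54] per count of Anxa2, a partner of S100a6. Cacybp lay on the other side of 0, with 4441 and 1700 counts and a log2 ratio of -0.997 [-1.08, -0.92]. S100a6 counts per Cacybp count were 0.258 without DSS and 3.13 with it. Sugt1 had 3586 and 2175 counts and a log2 ratio of -0.33 [-0.41, -0.26].

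S100a13 (20196) is known for the export of FGF1 and interleukin-1 alpha, proteins that leave the cell without a signal peptide. It was the lowest of the 8 in the control, with 327 counts (4.57 CPM), and had 1718 counts (31.4 CPM) in the DSS library. Its log2 ratio of 2.78 [2.61, 2.96] was the highest of the family, and its interval overlapped that of S100a6. Of its cargo, Fgf1 had 63 and 56 counts, with a log2 ratio of 0.22 [-0.33, 0.76], and Il1a was not in the table. Syt1, a synaptotagmin of the same export complex, had 11 and 32 counts, too few to place closely (1.93 [0.90, 3.07]).

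S100a1 (20193), best known in heart and skeletal muscle as a partner of the ryanodine receptor and the calcium pump Atp2a2, is the closest neighbour of S100a13 on the chromosome. It had 1488 and 2825 counts, or 20.8 and 51.7 CPM, and a log2 ratio of 1.31 [1.22, 1.40]. S100a13 counts per S100a1 count were 0.220 without DSS and 0.608 with it, a log2 change of 1.47 [1.27, 1.67], so these neighbours did not keep their ratio. Of the muscle partners, Ryr1 and Ryr2 were not in the table and Atp2a2 had 22631 and 14621 counts (-0.24 [-0.27, -0.21]).

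In RefSeq, S100a1 and S100a13 start back to back and are transcribed away from each other. Their promoter windows (250 bases before to 50 after the start) share 204 bases. In GENCODE, S100a1 starts closer to S100a13 than in RefSeq. The stretch between the first exons of the GENCODE models, 42 bases, is therefore shorter than that between the RefSeq starts. It is shown because both genes, with unlike differences, flank it. It lies in GRCm38.p6 at chr3:90514393-90514434, plus strand, and reads 5′ to 3′ as follows.
Between S100a1 and S100a13: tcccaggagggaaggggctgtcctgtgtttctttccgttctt

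S100a14 (66166), which is found mainly in epithelia, and S100a16 (67860), which is made in many tissues, are members of the same cluster that bind calcium weakly in part of the molecule. S100a14 had 2577 and 4788 counts, or 36.0 and 87.6 CPM, with a log2 ratio of 1.28 [1.21, 1.35]. S100a16 had 1602 and 2454 counts, or 22.4 and 44.9 CPM, with a log2 ratio of 1.004 [0.91, 1.10], and the interval spans the 2-fold line. S100a14 was thus close to S100a1, whose interval overlaps its own, and S100a16 was close to S100a11.

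S100g (12309) stands apart by its place on the X chromosome and by its role. Calbindin-D9k is a monomer that buffers and ferries calcium from the apical channel Trpv6 to the basolateral pump Atp2b1, and its gene is a textbook target of the vitamin D receptor (Vdr). It had 2392 control counts against 6172 after DSS, or 33.4 and 113 CPM. The log2 ratio was 1.76 [1.69, 1.82], higher than that of 90.1% of genes tested. It is the third highest of the family, and its interval overlaps neither that of S100a6 above it nor that of S100a1 below it. The 12 enterocyte markers had a median log2 ratio of 2.93, from 1.24 to 5.30, and the part of cell type composition in the value of S100g was not tested.

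Other genes of the calcium route were listed as well. Of 13 listed genes, 8 were in the table and 7 had enough counts. Of these 7, 2 were at or above 1 (all genes 19.3%) and 0 at or below -1 (all genes 20.2%), with a median of 0.53. Atp2b1 had 8559 and 10200 counts (0.64 [0.60, 0.68]), and Vdr had 24234 and 24472 (0.40 [0.38, 0.43]). S100g counts per Atp2b1 count went from 0.279 to 0.605, and counts per Vdr count from 0.0987 to 0.252. Trpv6 had 2 counts in each library, under the floor of 3, so no fold is given. The 2 genes at or above 1 were Slc8a1, a sodium-calcium exchanger, with 64 and 331 counts (2.76 [2.37, 3.17]), and Atp2b4, another plasma membrane pump, with 174 and 415 (1.64 [1.38, 1.91]). Trpv5, Calb1, Atp2b2 and the vitamin D hydroxylases Cyp24a1 and Cyp27b1 were not in the table.

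**Figure D3:**
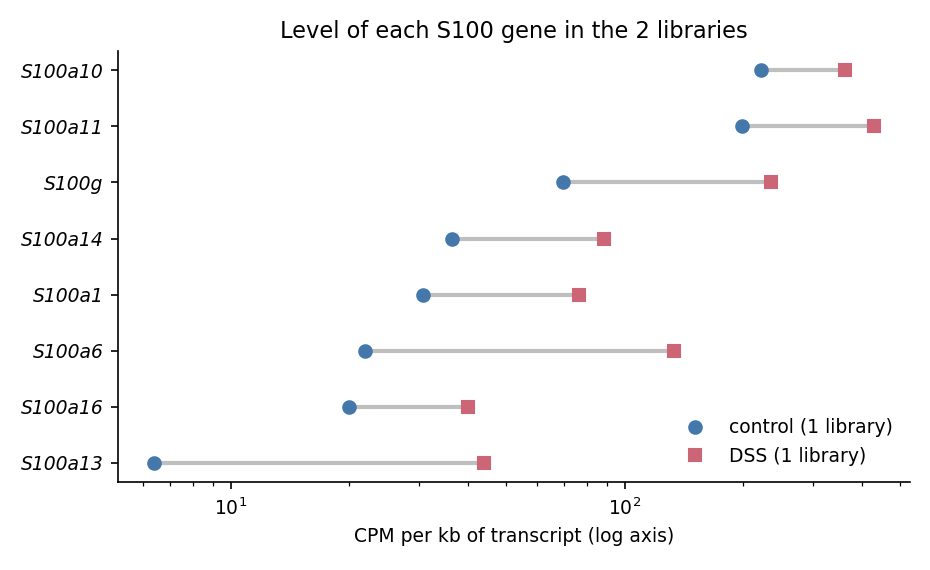
Level of each S100 gene in CPM per kilobase of transcript, on a log axis, in the control (circles) and DSS (squares) library, ordered by the control level. S100a10 and S100a11 lie above the others in both libraries, and S100a6 moves from the sixth place of 8 to the fourth.

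Levels of different genes were compared per kilobase of transcript. In the control the order was S100a10 (222 CPM per kb), S100a11 (199), S100g (69.6), S100a14 (36.5), S100a1 (30.7), S100a6 (21.9), S100a16 (19.9) and S100a13 (6.39). In the DSS library it was S100a11 (429), S100a10 (362), S100g (235), S100a6 (133), S100a14 (88.7), S100a1 (76.3), S100a13 (43.9) and S100a16 (40.0). S100a10 and S100a11 thus changed places, S100a6 passed S100a14 and S100a1, and S100a13 passed S100a16. Each order rests on 1 library and on the median length of each gene's annotated transcripts, so neighbours as close as S100a6 and S100a16 in the control or S100a13 and S100a16 in the DSS library have no spread between samples to be judged by. With 2 libraries every gene's pattern is a single ratio, so no genes of similar pattern are named.

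Other S100 genes were few. Of 10 listed, 4 were in the table, and 2 of these were at or above 1 (all genes 19.3%). S100b, a protein of glial cells and some other cell types, had 116 and 488 counts (2.46 [2.17, 2.77]), and S100a5, known from olfactory neurons, had 28 and 56 (1.39 [0.71, 2.10]). Of 7 fused-type S100 genes, only Tchh was in the table, with 82 and 106 counts (0.76 [0.33, 1.19]). S100a3, S100a4, S100a7a, S100a7l2, S100a8 and S100a9 were not in the table. No gene in the table has fewer than 1 count in either library, so no level can be given for a gene with no counts in either library, and nothing is said here about the calprotectin genes S100a8 and S100a9. The immune cell list, whose summed level was 14.2 CPM without DSS and 24.6 CPM with it, had 5 of 10 genes in the table, and the pan-leukocyte gene Ptprc was not among them. Mesenchymal markers (5 of 10 in the table) summed to 1.58 and 2.23 CPM, and endothelial and nerve markers (4 of 8) to 2.53 and 2.76 CPM.

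**Figure D4:**
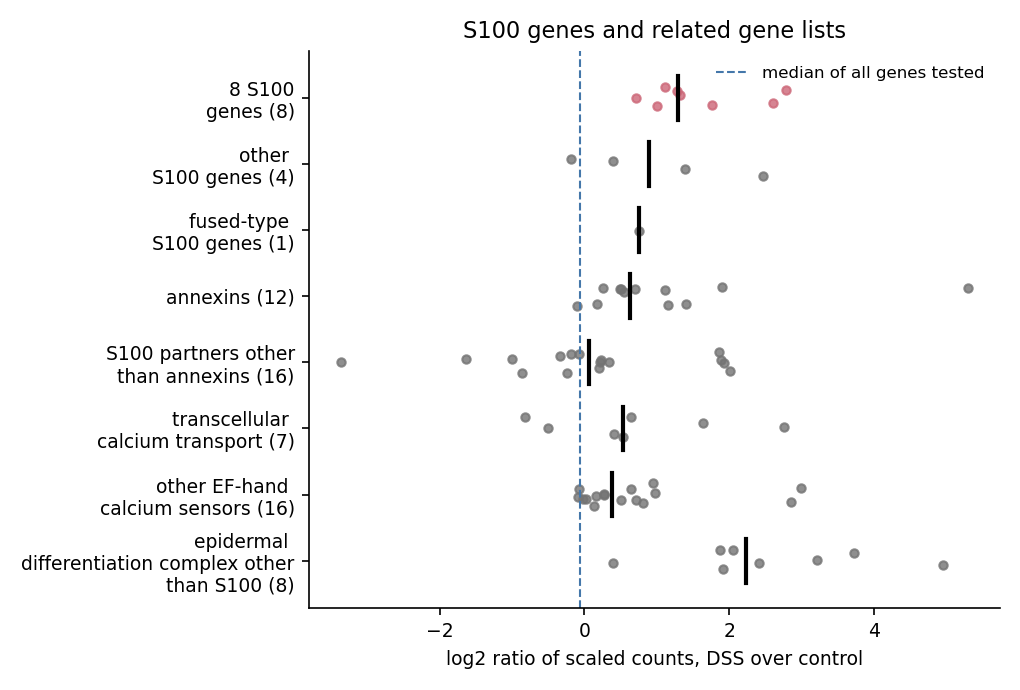
Log2 ratio of scaled counts, DSS over control, for each gene of the S100 family and of related lists (points), with the median of each list (black bar), the number of genes in brackets and the median of all genes tested as a dashed line. The 8 S100 genes lie between 0.71 and 2.78, and the partners other than annexins lie on both sides of 0.

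The 20 partners other than annexins included 16 tested genes, of which 4 were at or above 1 (all genes 19.3%) and 2 at or below -1 (all genes 20.2%), with a median of 0.06. With total counts the median was -0.19, with 4 genes at or above 1 (all genes 15.4%) and 4 at or below -1 (all genes 26.2%). Beyond the partners already given, Tlr4, a receptor of secreted S100 proteins, had 54 and 150 counts (1.86 [1.40, 2.34]), and Ager, which encodes the receptor RAGE, had 183 and 163 (0.22 [-0.09, 0.53]). Bsg, which encodes basigin, a surface protein bound by S100A9, had 168253 and 70421 counts (-0.87 [-0.88, -0.86]). Trp53, the gene of p53, which several S100 proteins bind, had 6765 and 1655 (-1.64 [-1.72, -1.56]). The lowest of the partners was Myl9, a myosin light chain, with 6098 and 451 counts (-3.37 [-3.51, -3.23]).

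Most S100 genes of mammals lie within or beside the epidermal differentiation complex, a gene cluster that also holds the cornified envelope genes. Of 24 listed genes of that complex other than S100, 8 were in the table and 7 of them were at or above 1 (all genes 19.3%), with a median of 2.23. They were Sprr genes in all 7 cases, and 3 of these, Sprr2a1, Sprr2a2 and Sprr2a3, are near-identical copies whose reads can be split. The 20 tested genes that flank S100a11 and S100a10 in RefSeq order (10 on each side) included 12 at or above 1 (all genes 19.3%) and 2 at or below -1 (all genes 20.2%), with a median of 1.75, and they overlap the Sprr list. The 20 that flank the block from S100a1 to S100a6 included 7 and 1 (all genes 19.3% and 20.2%), with a median of -0.05. These 7 all lay on the side of the Sprr genes, and Sprr2a3, Sprr2b and Sprr2e are counted around both blocks. The 2 neighbourhoods and the Sprr list are therefore not separate observations. The 20 around S100g included 4 and 8 (all genes 19.3% and 20.2%), with a median of -0.56. No tested gene other than S100 genes lay inside either block on chromosome 3. The neighbours were chosen after the values had been seen.

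The RefSeq promoter table held windows for 6 of the 8 genes, 7 windows in all, without S100a10 and S100a14. They were searched on both strands for 6 motifs. The TATA box was spelled as TATAAA, which 13.6% of all 32851 windows held. The AP-1 motif was TGANTCA (7.81% of windows) and the CDX motif was TTTATG (11.9%). The HNF4 motif was CAAAGTCCA (0.475%), the E-box was CACGTG (7.15%) and the GC box was GGGCGG (35.7%). None was found in the windows of S100a1 and S100a13. S100a6 held TTTATG at 234 bases before the start and CACGTG at 15 after it, and a window of S100a16 held TGAATCA at 192 and GGGCGG at 30 bases before the start. The windows of S100a11 and S100g are shown because S100a11 held the most matches of the 7 windows and S100g is the enterocyte gene of the family. The 150 bases up to the start of S100a11 (GRCm38.p6, chr3:93520346-93520495, plus strand) have the AP-1 letters and GC boxes in capitals. The 150 bases that end 12 bases past the annotated start of S100g (chrX:162964588-162964737, minus strand) have the letters TATAAA in capitals. They begin at the annotated start and run into the annotated transcript, so they do not lie before the start.
S100a11: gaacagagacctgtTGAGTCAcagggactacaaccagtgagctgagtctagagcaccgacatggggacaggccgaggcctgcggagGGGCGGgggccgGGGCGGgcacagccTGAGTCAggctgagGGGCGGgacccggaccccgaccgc
S100g: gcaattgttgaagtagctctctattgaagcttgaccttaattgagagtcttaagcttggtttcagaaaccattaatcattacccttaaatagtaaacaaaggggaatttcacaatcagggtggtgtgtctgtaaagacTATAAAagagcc

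In S100a11 the AP-1 letters TGAGTCA begin 136 and 38 bases before the start and GGGCGG begins 64, 52 and 24 bases before it, and CACGTG begins at 223, outside the stretch shown. A match is a run of letters and not a bound site. No letters searched were shared by all 6 genes. The motifs occur in 0.475% to 35.7% of all windows, so a match in all 6 genes would be uncommon in any case. A role of these motifs in the values was not tested.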

How the data were processed

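Gene expression was measured by mRNA-seq (TruSeq Stranded mRNA) in 1 control and 1 DSS-treated mIO culture. The deposited values are whole-number read counts for each gene that the authors had not scaled. Single-sample files named as FPKM held the same counts for all 19294 genes. HISAT2 and StringTie are named in the submitters' processing notes without versions. The counter and the genome build are not given in the sources used here.

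TMM scaling was done in edgeR 4.0.16 (R 4.3.3), and log2 ratios were given exact Clopper-Pearson 95% intervals for counting error. Changes in the ratio of 2 genes have exact conditional intervals (scipy 1.17.1), for 14 pairs chosen after the values were seen. Genes that reached 10 counts in either library were compared, with lines of 1 and 2 on the log2 scale. With 1 library per group no test was possible. The script was tested on simulated counts, in which 100% of 200 changed genes passed the line of 2 and 95.9% of intervals over 19266 genes held the true ratio. The simulated counts had counting error only, and few genes were changed, equally in both directions. That setting is milder than these data, so it checks the arithmetic and neither the scaling nor the variation between cultures. The members and the 18 gene lists were chosen with earlier results of these data known. Named genes were the members, Anxa1, Anxa2, Anxa11, Trpv6, Vdr, Atp2b1, and up to 6 genes per related list with at least 50 counts and a log2 ratio of 1 or more in either direction. Cacybp, Sugt1, Fgf1, Syt1, Atp2a2, Bsg, Ager, Tchh, the EF-hand genes and the Sprr genes were named after their values were seen. Lengths came from GENCODE vM21 transcripts, near-identical copies from BLAST 2.17.0, and gene order and promoters from RefSeq (GRCm38.p6 for promoters). Of 79716 accessions listed with the counts, 94.0% were in the RefSeq table. Plots used matplotlib 3.10.9.

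The alternatives tried were scaling by total counts, by upper quartile or by DESeq2 1.42.0 size factors, a prior count of 2, a control library thinned to the DSS total, a minimum of 10 counts in both libraries, and no minimum.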

Additional observations from a re-analysis of the deposited data

How the results depend on the processing

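The 8 S100 genes had 56 values under 7 alternatives, and all 56 were above 0 (all genes 38.5% to 51.3%, by alternative). Of the 56, 44 were inside the counting interval of the TMM value and 12 outside it. The 12 came from total counts, where every member was outside, and from upper quartile factors. The 2 alternatives that change only the minimum count leave each member's value as it is, so they could not place one outside. A prior count of 2 is small beside counts of at least 327. The median log2 ratio of the 8 genes, 1.30 with TMM, was 1.04 with total counts and 1.39 with upper quartile factors, and the ratio of their summed counts, 1.21 with TMM, was 0.95 and 1.30. Both alternatives multiply all genes of a library by another constant, so the order of the genes and the ratios between genes do not move. The number of S100 genes at or above 1 was 5 with total counts (all genes 15.4%) and 7 with the other alternatives (all genes 16.8% to 21.2%). With each alternative 2 were at or above 2 (all genes 5.85% to 8.54%). No paired analysis was possible because each group has 1 library. For the same reason the variation between cultures is unknown, and no replicate could be left out. Depth was not the limit for these 8 genes, whose lowest count was 327, but it was for Trpv6, Syt1 and S100a5.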

Other observations

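Of 16 other EF-hand protein genes tested, 13 had log2 ratios above 0 (all genes 48.0%), or 10 with total counts (all genes 38.5%). The list is not confined to calcium sensors, as it also holds myosin light chains (Myl6, Myl12a, Myl12b) and the calpain subunit Capns1. Of these 16, 2 were at or above 1 (all genes 19.3%) and 0 at or below -1 (all genes 20.2%), with a median log2 ratio of 0.39 (0.13 with total counts). Chp2, a cofactor of sodium-proton exchangers in the intestinal epithelium, had 1542 control counts against 9360 after DSS (2.99 [2.91, 3.07]), and Efhd1, a mitochondrial EF-hand protein, had 34 and 187 (2.85 [2.31, 3.42]).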
